A study of Mus musculus with 15 samples.

Results

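The scavenger and apoptotic cell receptors examined here are 10 genes, Msr1, Marco, Cd36, Scarb1, Mrc1, Cd163, Stab1, Timd4, Mertk and Axl, taken by name from a table of 20089 gene rows of mouse RNA-seq. The cells were bone marrow-derived macrophages (BMDMs) from wild-type C57BL/6 mice, that is, bone marrow cells grown for 3 days in macrophage colony-stimulating factor (M-CSF). All 5 groups received M-CSF and had 3 samples each. Control received M-CSF alone, and the stimulated groups received M-CSF with RANKL, the cytokine that drives osteoclast formation, or with lipopolysaccharide (LPS), a bacterial wall component that activates macrophages through TLR4, for 4 hours (RANKL 4 h, LPS 4 h) or 3 days (RANKL 3 d, LPS 3 d). The design asks which genes respond to RANKL, and which of those also respond to LPS. The age of the mice behind these samples is not stated in the labels, and no M-CSF culture kept for the further 3 days was analysed here, so time in culture and stimulation cannot be told apart in RANKL 3 d and LPS 3 d. The labels do not say whether replicates came from separate mice or cultures, so p-values measure only the spread between these samples, which may be technical.

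Macrophages clear modified lipoproteins, microbes and dying cells through receptors of several unrelated families. Msr1 and Marco are class A scavenger receptors, which bind polyanionic ligands such as oxidised lipoprotein and bacterial surfaces, while Cd36 and Scarb1 are class B receptors, which bind lipoproteins, fatty acids and phospholipids. Mrc1 is the mannose receptor, Cd163 takes up haemoglobin bound to haptoglobin, and Stab1 (stabilin-1) takes up matrix fragments and binds phosphatidylserine, and all of them are commonly used as marks of tissue-resident or alternatively activated macrophages. Timd4 binds phosphatidylserine on dying cells directly, whereas the receptor tyrosine kinases Mertk and Axl bind it through bridging proteins, Gas6 among them. In bone marrow cultures, macrophages and osteoclasts arise from the same precursors, which fuse into osteoclasts under RANKL.

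Expression was given as FPKM, fragments per kilobase of transcript at a common sequencing depth, a scale that allows levels to be compared between genes. The fragments recovered from the FPKM values summed to between 18306184 and 20330207 per sample (median 19351141), and this sum differed little among groups. It covers only the 14485 genes with fragments recovered and is not the full depth of a library. The FPKM tables carry counting error as well as sample spread, and this matters for Timd4 in LPS 3 d, which rested on 6 to 13 fragments per sample, and for Cd163, which rested on 8 to 247 in that group. The 4 LPS response genes Il6, Nos2, Il1b and Ptgs2 summed to between 1903 and 2256 FPKM in LPS 4 h, to between 113 and 304 in LPS 3 d and to at most 13.5 in the other groups. All 8 macrophage markers were detected in every group, with sums from 6109 FPKM in LPS 4 h to 17530 in LPS 3 d. The 10 osteoclast markers summed to between 1721 and 5474 FPKM in RANKL 3 d against 155 to 280 in Control. Markers of other cells also moved: the 12 stromal markers, none at 0 in a whole group, summed to between 373 and 1677 FPKM in RANKL 3 d against 133 to 283 in Control, and the 7 neutrophil markers, none at 0 in a whole group, summed to between 4657 and 14080 in Control, between 998 and 4147 in RANKL 3 d and between 119 and 1105 in LPS 3 d. The 8 endothelial markers, among them Stab2 and Lyve1, summed to between 12.5 and 20.7 FPKM in Control, between 3.23 and 9.26 in RANKL 3 d and between 2.61 and 6.14 in LPS 3 d. The 3 B cell markers summed to between 7.13 and 9.55 in Control and to at most 0.671 in RANKL 3 d and 0.224 in LPS 3 d. The 5 dendritic markers summed to between 13.8 and 30.4 in Control, between 11.9 and 24.1 in RANKL 3 d and between 2.48 and 5.12 in LPS 3 d, where 1 of them was at 0 in all samples. Endothelial, B cell and dendritic marker sums were thus low in every group and also lower in LPS 3 d, while the 4 adipocyte markers summed to at most 0.135 in any sample. Their part in the results below was not tested beyond the fit with the stromal level as a covariate. In bulk RNA, fewer cells of a type and less RNA per cell cannot be told apart.

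One library stood apart. LPS 3 d replicate 3 had a macrophage marker sum of 17530 FPKM against 6120 and 7918 in replicates 1 and 2, a stromal sum of 445 against 93.5 and 105, a neutrophil sum of 1105 against 119 and 140, and an LPS response sum of 113 against 267 and 304. Receptor calls that involve LPS 3 d are therefore given with and without it.

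In Control, the receptors covered a wide range of levels per length. Cd36 had the highest level, 637 ± 188 FPKM (SD, n = 3), higher than all but 73 of the 20089 rows. Msr1 (135 ± 27.5), Mrc1 (134 ± 48.6), Stab1 (117 ± 43.6), Marco (110 ± 73.6) and Axl (97.5 ± 21.6) followed at levels of about 100 FPKM, and Mertk (34.8 ± 3.68) and Scarb1 (26.8 ± 4.27) were lower. Cd163 (3.33 ± 1.70) and Timd4 (1.90 ± 0.780), which mark resident macrophages of many tissues, were present at low levels, with 186 to 502 and 54 to 135 fragments per sample. All 10 receptors passed the filter of a mean of at least 0.1 FPKM and were tested among 11743 genes. The spread between Control samples was largest for Marco, with a coefficient of variation of 66.9%, and Cd163, with 50.9%.

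**Figure D1:**
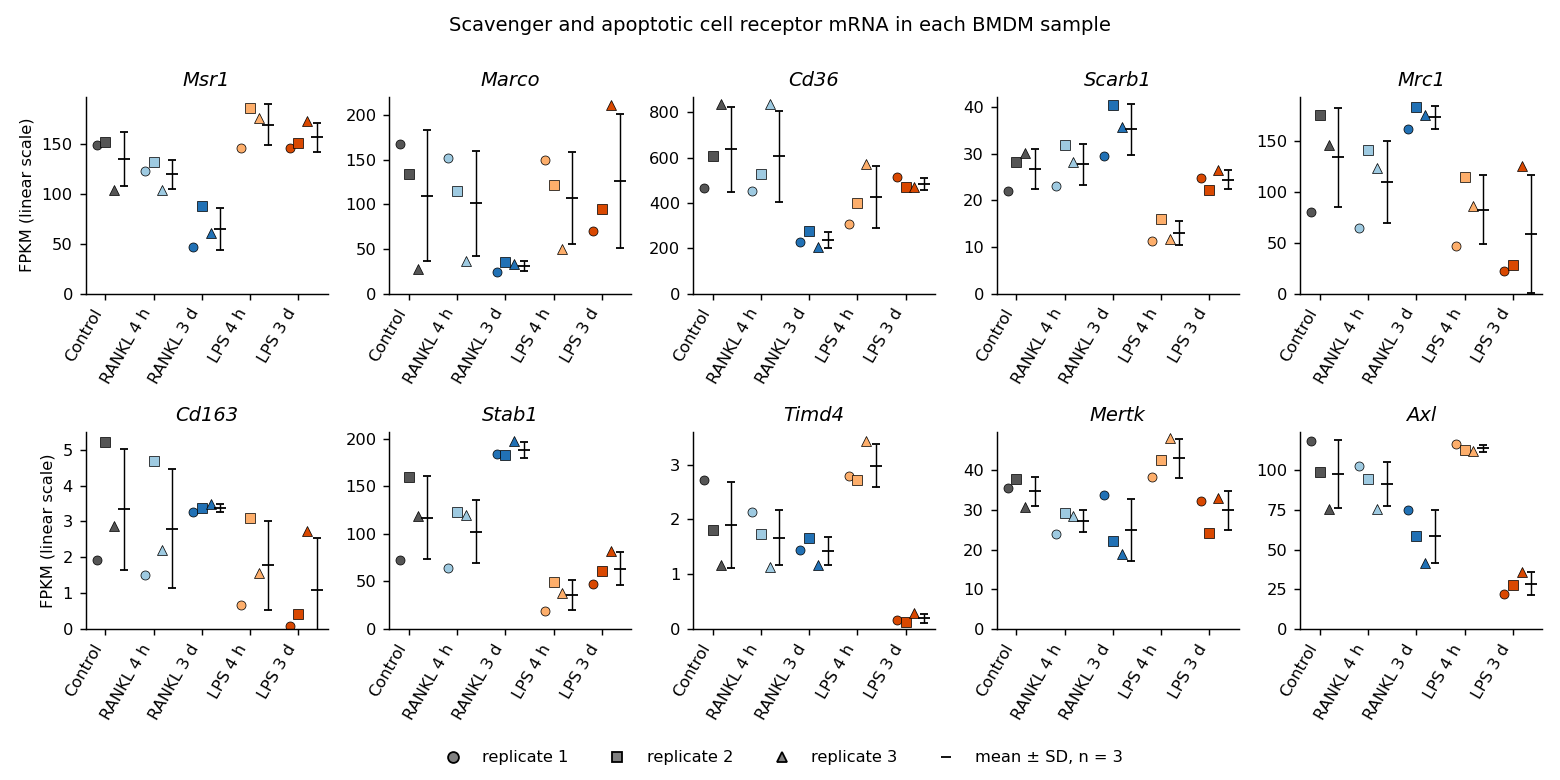
FPKM (linear scale) of each receptor in each of the 15 samples, by group, with the replicate number as marker shape and the mean ± SD (n = 3) as bars to the right of the points. Msr1 and Cd36 were lowest in RANKL 3 d, Scarb1 and Stab1 in LPS 4 h, and Mrc1, Cd163, Timd4 and Axl in LPS 3 d.

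A gene was called changed when its fold change was above 1.5 or below 0.66 and its adjusted p was under 0.05. Fold changes are on the scale of log2(FPKM + 0.1), which understates changes of low genes. After 4 hours of RANKL none of the 10 receptors changed. Across all genes 0.111% were higher and 0.00852% lower in RANKL 4 h. The count of receptors was also 0 by voom on recovered fragments, and the unadjusted limma p of every receptor was above 0.05, the lowest being 0.0908 for Mertk (log2 fold change -0.35, 95% interval -0.77 to 0.06). For Marco the interval ran from -1.45 to 1.47, so a change of either direction within it was not excluded.

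After 3 days of RANKL, 3 receptors fell and none rose, against 16.6% of all genes higher and 7.54% lower. Those that fell were Cd36, Msr1 and Axl. After 4 hours of LPS, Scarb1 and Stab1 fell and none rose, where 8.43% of all genes were higher and 39.7% lower. After 3 days of LPS, Timd4, Cd163, Axl and Mrc1 fell and none rose, where 13% of all genes were higher and 14.4% lower. Without LPS 3 d replicate 3, 5 receptors were lower, with Stab1 added, where 18% of all genes were higher and 15.7% lower. The median log2 fold change of the 10 receptors was -0.15 in RANKL 4 h, -0.42 in RANKL 3 d, -0.20 in LPS 4 h and -0.60 in LPS 3 d, beside 0.00, 0.16, -0.52 and 0.08 over all genes. Axl passed in both 3-day groups, which share the same 3 Control samples.

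The downward shift of the median gene in LPS 4 h bears on these calls. When each sample was centred on its median gene, 15.9% of all genes were higher and 13% lower in LPS 4 h, Stab1 stayed lower (log2 fold change -1.18), Scarb1 no longer passed the fold threshold (-0.48), and Timd4 (1.26), Msr1 (0.91), Mertk (0.87) and Axl (0.81) were called higher. Thus, relative to the median gene these 4 receptors were higher, while in FPKM they did not pass. For RANKL 3 d, centring gave 9.94% of all genes higher and 12.2% lower and added Mertk (-0.74) to the receptors that were lower.

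**Figure D2:**
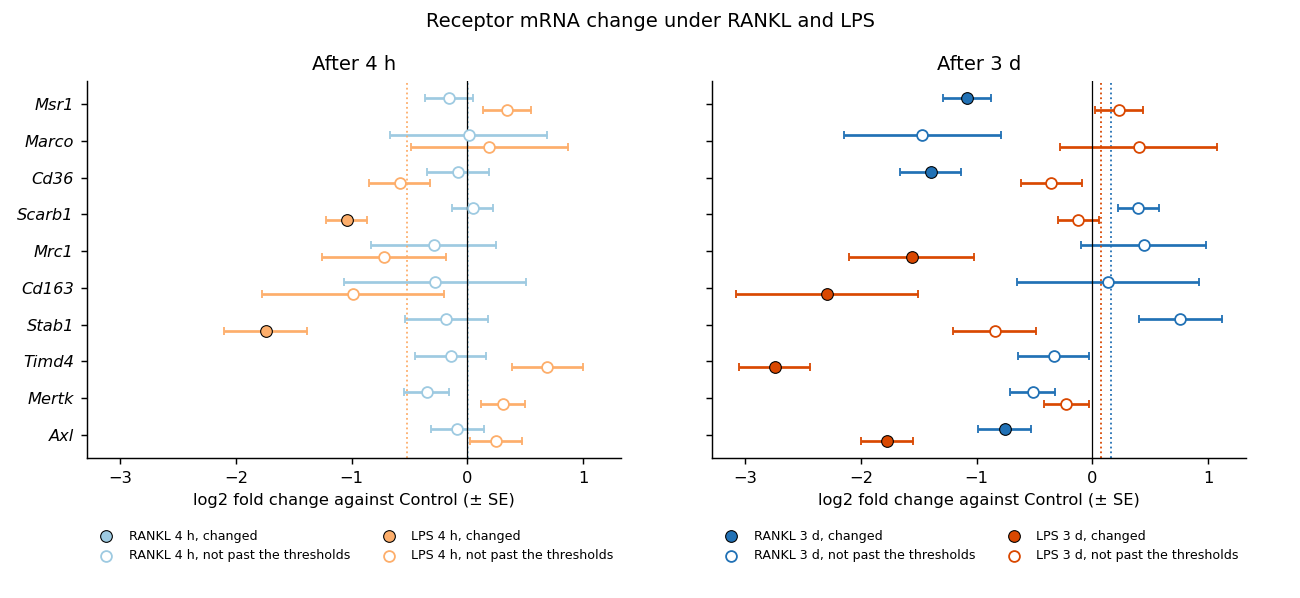
Log2 fold change against Control (± SE) of each receptor after 4 hours (left) and 3 days (right) of RANKL (blue) or LPS (orange). Filled points passed the fold and adjusted p thresholds, open points did not, and dotted lines mark the median of all genes tested, at -0.52 in LPS 4 h.

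Msr1, the class A scavenger receptor SR-A, had 150, 153 and 104 FPKM in the Control samples and 46.6, 87.8 and 60.6 in RANKL 3 d. The groups did not overlap, and Msr1 fell by 1.09 on the log2 scale (SE 0.21, adjusted p = 0.00188). RANKL 4 h (123, 132 and 104), LPS 4 h (146, 187 and 176) and LPS 3 d (146, 151 and 173) overlapped with Control. Msr1 was thus lowest in RANKL 3 d, separate from the next group in order, RANKL 4 h, whereas the other neighbours in the order of group means overlapped. Between the 3-day groups it was lower under RANKL by 1.32 on the log2 scale (log2 fold change -1.32, SE 0.21, adjusted p = 0.000194), and this difference was -1.24 without LPS 3 d replicate 3.

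Marco, the other class A receptor, varied most in Control, with 168, 134 and 27.3 FPKM. RANKL 4 h (152, 115 and 36.1) and LPS 4 h (150, 122 and 49.9) had the same order, with replicate 3 lowest. The RANKL 3 d samples had 24.6, 35.9 and 32.8 FPKM, all near the Control sample that was low, and the difference did not pass (log2 fold change -1.47, SE 0.68, adjusted p = 0.115). Marco was called lower without Control replicate 3 (-2.29, adjusted p = 0.0136), with the stromal level as a covariate (-2.43, adjusted p = 0.0144) and with the replicate block among the 4 paired groups (-1.47, adjusted p = 0.0193). By replicate number, the ratio of RANKL 3 d to Control was 0.146, 0.267 and 1.20. LPS 3 d had 70.6, 95.3 and 212 FPKM, the highest in the library that stood apart, and the fold change against Control was 0.40 with it and -0.05 without it. Marco was lower in RANKL 3 d than in LPS 3 d (-1.87, adjusted p = 0.0372), a call that did not pass without LPS 3 d replicate 3 (-1.41, adjusted p = 0.129).

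Cd36, the class B receptor for oxidised lipoprotein and fatty acids, had 467, 606 and 838 FPKM in Control and 229, 275 and 207 in RANKL 3 d. These groups were separate, and Cd36 fell by 1.40 on the log2 scale (SE 0.27, adjusted p = 0.00176). RANKL 4 h was close to Control in every numbered pair (454, 527 and 836 FPKM). The LPS 4 h levels were 306, 400 and 573, or 0.656, 0.66 and 0.683 of the Control sample of the same number. Although these ratios were alike, the groups overlapped and the call did not pass (log2 fold change -0.59, SE 0.27, adjusted p = 0.0710). With the replicate block among the 4 paired groups the adjusted p was 0.0227, but the fold change of 0.666 was not below 0.66. LPS 3 d had 516, 469 and 469 FPKM (log2 fold change -0.35, adjusted p = 0.318), and Cd36 was lower in RANKL 3 d than in LPS 3 d (-1.04, adjusted p = 0.00582).

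Scarb1, the receptor for high-density lipoprotein, had 22.0, 28.3 and 30.1 FPKM in Control and 11.3, 16.04 and 11.7 in LPS 4 h. The groups were separate and Scarb1 fell by 1.04 on the log2 scale (SE 0.18, adjusted p = 0.000203), which is -0.48 relative to the median gene. In LPS 3 d it was at 24.7, 22.2 and 26.4, within the Control range, and higher than in LPS 4 h by 0.92 (adjusted p = 0.000387), or 0.86 without LPS 3 d replicate 3. RANKL 3 d had the highest mean, with 29.5, 40.4 and 35.8 FPKM (log2 fold change 0.40, adjusted p = 0.101).

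Mrc1, Cd163 and Stab1 varied together. Their promoter sequences are shown since the levels of these receptors ran in parallel across samples; each is the stretch of 250 bases before the RefSeq start site in GRCm38.p6, read 5′ to 3′ on the gene's strand, with matches to the searched motifs in capitals. Promoter entries were matched for 8 of the 10 receptors, all but Msr1 and Scarb1.
Mrc1, chr2:14229164-14229413, plus strand: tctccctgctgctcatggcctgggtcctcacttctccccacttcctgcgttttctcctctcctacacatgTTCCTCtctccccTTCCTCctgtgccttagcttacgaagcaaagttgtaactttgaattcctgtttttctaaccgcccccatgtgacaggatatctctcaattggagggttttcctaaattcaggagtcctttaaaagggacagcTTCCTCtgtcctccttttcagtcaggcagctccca
Cd163, chr6:124304401-124304650, plus strand: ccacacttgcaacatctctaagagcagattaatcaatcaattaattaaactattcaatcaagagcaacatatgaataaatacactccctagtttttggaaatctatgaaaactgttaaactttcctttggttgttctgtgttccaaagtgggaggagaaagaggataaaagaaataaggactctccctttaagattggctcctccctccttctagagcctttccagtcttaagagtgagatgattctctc
Stab1, chr14:31168642-31168891, minus strand: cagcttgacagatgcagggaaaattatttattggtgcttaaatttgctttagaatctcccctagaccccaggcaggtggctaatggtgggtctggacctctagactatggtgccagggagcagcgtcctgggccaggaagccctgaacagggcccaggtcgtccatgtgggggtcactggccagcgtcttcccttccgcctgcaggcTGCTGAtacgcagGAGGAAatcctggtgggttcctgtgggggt
Both strands were searched for the PU.1 core GAGGAA, the AP-1 site TGANTCA, the MAF half-site TGCTGA and the nuclear receptor half-site AGGTCA. Mrc1 held 3 PU.1 cores, at 180, 167 and 35 bases before the start, Stab1 held 1 at 30 bases and 1 MAF half-site at 43 bases, and Cd163 held none of the 4 motifs. Of 32851 mouse promoters of this length, 23.3% held the PU.1 core, 6.75% the AP-1 site, 16.1% the MAF half-site and 14% the nuclear receptor half-site. A match is a run of letters only, and its absence from this window says nothing on the factor.

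The mannose receptor Mrc1 had 80.7, 176 and 146 FPKM in Control and 22.5, 28.3 and 125 in LPS 3 d. The high LPS 3 d value was in the library that stood apart and lay inside the Control range. Mrc1 fell by 1.56 on the log2 scale with all samples (SE 0.54, adjusted p = 0.0369). Without that library it fell by 2.33 (adjusted p = 0.000649). The call with all samples did not pass when Control replicate 2 or 3 or LPS 3 d replicate 1 or 2 was left out (adjusted p = 0.0923 to 0.171). RANKL 3 d was even across samples, at 161, 183 and 175 FPKM (log2 fold change 0.44, SE 0.54, adjusted p = 0.559). LPS 4 h had 46.8, 114 and 86.5 FPKM, or 0.580, 0.651 and 0.592 of the numbered Control sample, and with the replicate number as a block among the 4 groups it pairs Mrc1 was lower (-0.72, adjusted p = 0.00480), whereas without the block it did not pass (adjusted p = 0.266).

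Cd163, the haemoglobin scavenger, had 1.92, 5.22 and 2.87 FPKM in Control and 0.0832, 0.419 and 2.74 in LPS 3 d, on 8, 39 and 247 fragments. Again the high value was in the library that stood apart. Cd163 fell by 2.29 on the log2 scale (SE 0.79, adjusted p = 0.0356). Without that library it fell by 3.36 (adjusted p = 0.00104). Without Control replicate 2 or 3 or LPS 3 d replicate 1 or 2 the call did not pass (adjusted p = 0.0692 to 0.178). LPS 4 h levels were 0.659, 3.11 and 1.57, each below the numbered Control sample, with -0.99 on the log2 scale (adjusted p = 0.293, and 0.0134 with the replicate block among the 4 groups it pairs). RANKL 3 d was even across samples, at 3.26, 3.38 and 3.48 FPKM, within the Control range (log2 fold change 0.13, 95% interval -1.56 to 1.82).

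Stab1 had 72.6, 160 and 119 FPKM in Control, 19.3, 49.8 and 37.9 in LPS 4 h and 184, 183 and 198 in RANKL 3 d. LPS 4 h lay wholly below Control and RANKL 3 d wholly above it. Stab1 fell by 1.74 on the log2 scale in LPS 4 h (SE 0.36, adjusted p = 0.000901). The RANKL 3 d log2 fold change was 0.76 (SE 0.36, adjusted p = 0.120) and did not pass. It did not pass with median centring either (0.54, adjusted p = 0.268). With the replicate block over all groups Stab1 was called higher (adjusted p = 0.0174, and 0.0136 among the 4 groups the number pairs). LPS 3 d had 47.4, 61.0 and 82.0 FPKM (log2 fold change -0.84, adjusted p = 0.0803), and was called lower without the library that stood apart (-1.05, adjusted p = 0.0478). Exons of Stab1 overlap those of Nt5dc2 on the opposite strand and the strand setting of the counting is not given in the sources used here, so reads of the stretch both genes share cannot be told apart.

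Samples of the same number shared an order for these genes. Thus in Control, RANKL 4 h and LPS 4 h, replicate 1 was lowest for Mrc1, Cd163 and Stab1, replicate 3 was lowest for Marco, and replicate 3 was highest for Cd36. Deviations from the group means correlated within each numbered pair of those groups and RANKL 3 d, but not in LPS 3 d. Replicate 1 was lowest for Mrc1 and Cd163 in RANKL 3 d too, but not for Stab1, and replicate 3 was there neither lowest for Marco nor highest for Cd36. Mrc1, Cd163 and Stab1 varied little in RANKL 3 d, their largest coefficient of variation being 6.41%, against 50.9% for Cd163 in Control.

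**Figure D3:**
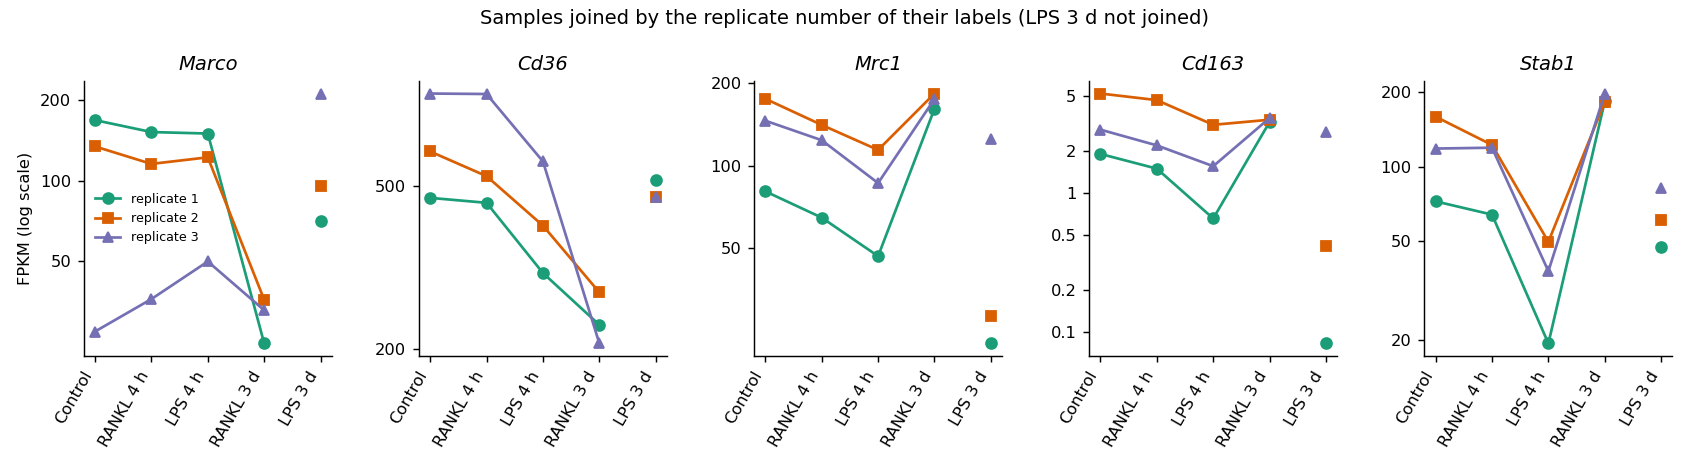
FPKM (log scale) of 5 receptors by group, with the samples of Control, RANKL 4 h, LPS 4 h and RANKL 3 d joined by replicate number and LPS 3 d left unjoined. Replicate 3 was lowest for Marco and highest for Cd36, and replicate 1 lowest for Mrc1, Cd163 and Stab1, in Control, RANKL 4 h and LPS 4 h.

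After removal of group means, Pearson's r over the 15 samples was 0.95 for Mrc1 with Cd163, 0.83 for Mrc1 with Stab1 and 0.80 for Cd163 with Stab1, and -0.84 for Marco with Cd36. The library that stood apart, LPS 3 d replicate 3, was included, and r without it is not given here. In that library Mrc1 had 125 FPKM against 22.5 and 28.3 in replicates 1 and 2, and Cd163 had 2.74 against 0.0832 and 0.419. How far r rests on this library was not tested. These r values are descriptions: the genes of a pair were read from the same libraries with the same FPKM scaling. Same-numbered samples of Control, RANKL 4 h, LPS 4 h and RANKL 3 d also deviated together, so the 15 samples are not independent.

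Timd4 and Axl also ran in parallel, and their promoter stretches of the same length and source are shown for this reason.
Timd4, chr11:46810549-46810798, plus strand: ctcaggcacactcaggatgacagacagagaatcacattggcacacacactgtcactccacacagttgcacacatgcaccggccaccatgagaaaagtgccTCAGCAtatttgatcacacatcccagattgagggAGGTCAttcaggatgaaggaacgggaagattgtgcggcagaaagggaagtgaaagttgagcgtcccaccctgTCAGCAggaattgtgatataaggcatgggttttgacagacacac
Axl, chr7:25788734-25788983, minus strand: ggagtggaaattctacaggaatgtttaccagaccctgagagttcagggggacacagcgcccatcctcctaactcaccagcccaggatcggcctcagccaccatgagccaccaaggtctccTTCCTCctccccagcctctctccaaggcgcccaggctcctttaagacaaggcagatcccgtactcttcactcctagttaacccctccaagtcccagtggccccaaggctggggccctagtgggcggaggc
Timd4 held 2 MAF half-sites, at 150 and 44 bases before the start, and 1 nuclear receptor half-site at 116 bases, while Axl held 1 PU.1 core at 130 bases.

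Timd4, the phosphatidylserine receptor TIM-4, had 2.72, 1.81 and 1.17 FPKM in Control and 0.163, 0.126 and 0.282 in LPS 3 d. The ranges were separate, and Timd4 fell by 2.74 on the log2 scale (SE 0.31, adjusted p = 2.93e-05). Without LPS 3 d replicate 3 it fell by 2.96. In LPS 4 h it was at 2.79, 2.72 and 3.43, all above the highest Control sample, the lowest of them only just, with 0.69 on the log2 scale (adjusted p = 0.0662). Timd4 passed in LPS 4 h in 6 of the alternatives, among them the replicate block among the 4 paired groups (adjusted p = 0.0285) and median centring (1.26, adjusted p = 0.0101). From LPS 4 h to LPS 3 d it fell by 3.44 (adjusted p = 6.75e-07). RANKL 4 h (2.14, 1.73 and 1.13) and RANKL 3 d (1.44, 1.67 and 1.16) overlapped with Control.

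Axl had 119, 98.7 and 75.4 FPKM in Control, 116, 113 and 112 in LPS 4 h and 21.7, 27.9 and 35.96 in LPS 3 d. LPS 3 d lay wholly below every other group. Axl fell by 1.78 on the log2 scale against Control (SE 0.23, adjusted p = 7.70e-05; -1.96 without LPS 3 d replicate 3) and fell by 2.02 against LPS 4 h (adjusted p = 4.29e-06). In RANKL 3 d (75.1, 58.3 and 41.5) it was separate from Control and fell by 0.76 (adjusted p = 0.0218), with ratios to the numbered Control sample of 0.634, 0.591 and 0.551. This call did not pass with only the 2 groups in the fit (adjusted p = 0.0571) or without Control replicate 1 or 2 or RANKL 3 d replicate 3 (adjusted p = 0.0588 to 0.101). Axl was higher in RANKL 3 d than in LPS 3 d by 1.02 (adjusted p = 0.00241). Over the 15 samples, Pearson's r of Axl with Timd4 was 0.94, and 0.75 after removal of group means.

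Mertk, the other receptor kinase, moved less. It had 35.7, 37.9 and 30.7 FPKM in Control, 24.0, 29.2 and 28.4 in RANKL 4 h, 33.9, 22.2 and 18.8 in RANKL 3 d, 38.4, 42.6 and 48.2 in LPS 4 h and 32.4, 24.1 and 33.2 in LPS 3 d. RANKL 4 h lay below and LPS 4 h above every Control sample, but neither difference passed (log2 fold change -0.35 and 0.31). Against Control its RANKL 3 d value was -0.52 (SE 0.19, adjusted p = 0.0575). Mertk was lower in RANKL 4 h than in LPS 4 h by 0.66 (log2 fold change -0.66, adjusted p = 0.00933).

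**Figure D4:**
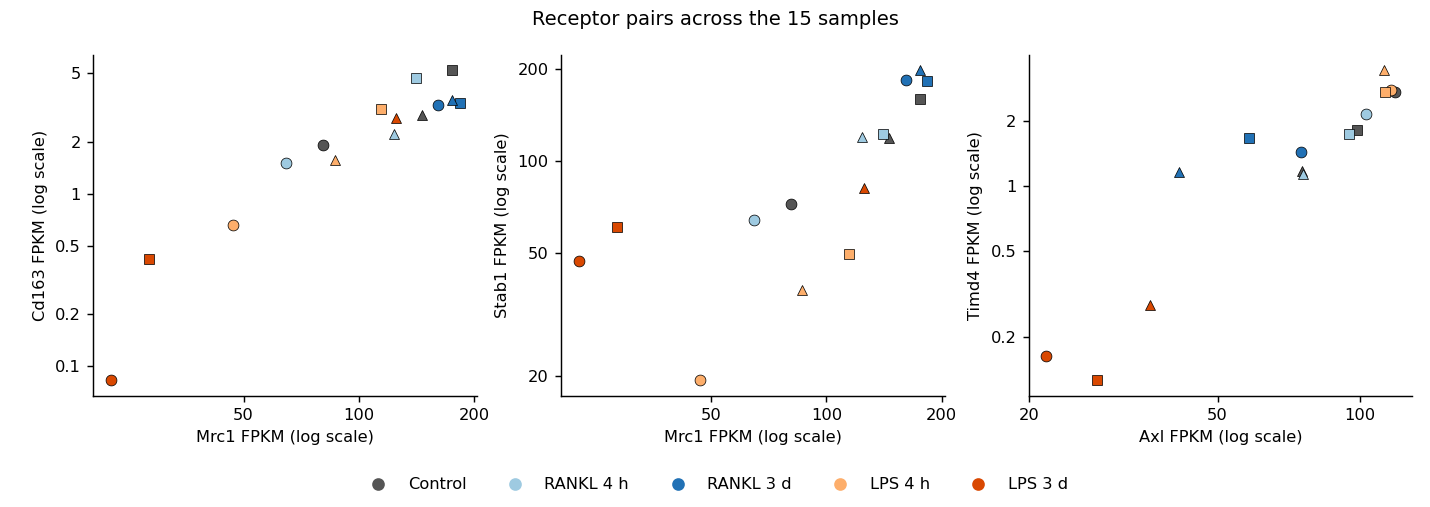
FPKM of Cd163 and Stab1 against Mrc1 and of Timd4 against Axl in the 15 samples (log scales), coloured by group with marker shape for the replicate number. LPS 3 d holds the 3 lowest Timd4 and Axl levels, and LPS 3 d replicates 1 and 2 the lowest Mrc1 and Cd163 levels.

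Compared directly, RANKL and LPS for 4 hours differed in 4 receptors: Scarb1 (log2 fold change 1.09) and Stab1 (1.56) were higher in RANKL 4 h, and Timd4 (-0.84) and Mertk lower, where 41% of all genes were higher and 8.98% lower. With median centring 13.5% of all genes were higher and 16.2% lower, Stab1 remained higher (0.99), Scarb1 did not pass, and Msr1 (-1.07) and Axl (-0.90) joined Timd4 and Mertk as lower. After 3 days, 8 receptors differed, against 23.3% of all genes higher and 12.8% lower in RANKL 3 d. Higher in RANKL 3 d were Cd163 (2.42, SE 0.79, adjusted p = 0.0218), Timd4 (2.41, SE 0.31, adjusted p = 3.14e-05), Mrc1 (2.004, SE 0.54, adjusted p = 0.00803), Stab1 (1.60, SE 0.36, adjusted p = 0.00241) and Axl, while Msr1, Cd36 and Marco were lower. Without LPS 3 d replicate 3 the 5 receptors that were higher all passed, with Cd163 at 3.49 and Mrc1 at 2.77, and 2 were lower, Marco not passing; 24.3% of all genes were then higher and 17% lower. The median gene shifted by 0.11, and with centring 19% of all genes were higher and 17.4% lower, with the same counts of 5 and 3 receptors.

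Between the times, Cd36 (-1.31), Msr1 (-0.92) and Axl (-0.67) were lower in RANKL 3 d than in RANKL 4 h, where 16.4% of all genes were higher and 6.83% lower (9.72% and 11.5% with median centring). The replicate block among the 4 paired groups added Stab1 (0.94, adjusted p = 0.00476) and Mrc1 (0.73, adjusted p = 0.00821) as higher and Marco (-1.48, adjusted p = 0.0189) as lower, the count rising from 3 to 6. The share of all genes called under this block is not given here, so nothing is read from that rise about the receptors. In LPS 3 d against LPS 4 h, Scarb1 and Stab1 (0.90, adjusted p = 0.0382) were higher and Timd4 and Axl lower, where 44.2% of all genes were higher and 13.9% lower. With median centring 18.8% of all genes were higher and 27.5% lower, no receptor was higher, and 5 were lower (Timd4, Axl, Mrc1, Mertk and Msr1). Without LPS 3 d replicate 3, Scarb1 was higher and Timd4, Axl, Cd163 (-2.37), Mrc1 (-1.61) and Mertk (-0.61) were lower, and Stab1 did not pass (0.70, adjusted p = 0.137).

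Other genes of the pathways were read from lists, whose counts stand beside the shares over all genes: 8.43% higher and 39.7% lower in LPS 4 h, 16.6% and 7.54% in RANKL 3 d, and 13% and 14.4% in LPS 3 d. In LPS 4 h the lower counts of the scavenger receptor, apoptotic cell receptor, regulator and lipid handling lists were thus near the share over all genes, and nothing is read from them about these lists. With median centring 15.9% of all genes were higher and 13% lower in LPS 4 h, and the centred counts below stand beside these shares. Of 12 other scavenger receptors 10 were tested. In LPS 4 h, 3 of the 10 were higher and 4 lower, beside 8.43% and 39.7% of all genes, among them Olr1, the receptor LOX-1 for oxidised lipoprotein, which rose by 3.26 on the log2 scale from 1.97 ± 0.511 to 19.7 ± 4.36 FPKM, and Cxcl16, a membrane-bound chemokine that binds oxidised lipoprotein (1.95). With centring 3 were higher and none lower. Of Lrp1, a large endocytic receptor, and Colec12, a class A-related collectin, the log2 fold changes were -1.06 and -0.80. After 3 days of RANKL, 2 were higher, Scarf2 (1.29) among them, and Olr1 (-1.65) was lower. In LPS 3 d, 2 were higher and 3 lower, with Cxcl16 at 1.70, Scarf1 at 0.70, Olr1 at -1.60 and Colec12 at -1.005. In RANKL 4 h none passed.

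Among 10 other receptors for apoptotic cells, 8 were tested and Tyro3 was not analysed here. Cd300lb, a phosphatidylserine-binding receptor of the CD300 family, had 80.6 ± 19.8 FPKM in Control and 4.97 ± 1.30 in LPS 4 h and fell by 4.00 (adjusted p = 1.06e-08). It was also lower in LPS 3 d (-2.03) and RANKL 3 d (-0.83). In LPS 4 h, 3 of the 8 were lower and none higher, where 39.7% of all genes were lower, with Itgb5 (-1.05) among them, whereas with centring 1 was higher and 1 lower. In RANKL 3 d, 2 were higher, Itgav (1.44) and Itgb3 (1.32), the pair that forms the vitronectin receptor of osteoclasts, and 2 were lower, Cd300lf (-1.31) and Cd300lb. In LPS 3 d, Itgb3 (-2.09) and Cd300lb were lower.

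The bridging proteins link dying cells to these receptors. Gas6, the ligand of Mertk and Axl, had 111, 220 and 166 FPKM in Control, 48.6, 105 and 69.8 in LPS 4 h and 24.4, 34.9 and 45.2 in LPS 3 d. Gas6 fell by 1.17 on the log2 scale in LPS 4 h (adjusted p = 0.00550) and by 2.24 in LPS 3 d (adjusted p = 0.000142). Of all 9 bridging proteins, 5 were lower and 1 higher in LPS 3 d, with a median of -0.91 beside 0.08 for all genes. Without the library that stood apart the counts were 6 and 1, where 15.7% of all genes were lower and 18% higher. With all samples, Anxa1 (-1.40) was among those lower, and Thbs1, which binds Cd36, was higher (1.80). RANKL 3 d differed in Edil3 alone, an integrin-binding protein, at 5.16 on the log2 scale. In that group 6 of the 12 stromal markers were called higher and none lower, beside 16.6% and 7.54% of all genes. With centring 3 stromal markers were higher and none lower, beside 9.94% and 12.2% of all genes. Any link between these markers and Edil3 was not tested. After 4 hours of LPS Gas6 alone of the bridging proteins was called, and 1 of them was higher and none lower with centring.

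Of 10 engulfment genes, which carry the signal to the cytoskeleton, 1 was higher and 2 lower in LPS 4 h: Crkl (0.63), Elmo2 (-1.999) and Abl1 (-1.39). With centring 2 were higher and 2 lower. RANKL 3 d had 2 higher, with Dock1 at 0.69, and in LPS 3 d Elmo1 was lower (-0.90). Among 11 sheddases and regulators, Adam17, which cleaves several of these receptors from the surface, had 27.6, 31.5 and 31.8 FPKM in Control and 54.7, 62.5 and 58.5 in RANKL 3 d, and rose by 0.95 on the log2 scale (adjusted p = 0.000166). In that group 4 regulators were lower, Pparg (-1.60), the lipid-sensing nuclear receptor known to activate Cd36, and Spic (-1.42) among them. In LPS 4 h, 3 were higher and 5 lower, Rxra (-2.53), the partner of several lipid-sensing nuclear receptors, among the latter, where 39.7% of all genes were lower. With centring 4 were higher and 3 lower, beside 15.9% and 13% of all genes. In LPS 3 d, 3 were higher and 2 lower, Pparg (-2.67) and Maf (-0.997), and in RANKL 4 h the only gene called on any list was Id3 (2.54). Of 9 lipid handling genes, Abca1, which exports cholesterol, rose in RANKL 3 d (2.11) and in LPS 3 d (2.38), while 3 and 4 were lower, Fabp4 (-2.48 and -1.57) being lower in both. After 4 hours of LPS 4 of the 9 were lower and none higher, Abcg1 (-2.27) and Npc1 (-1.52) among them, where 39.7% of all genes were lower. With centring 1 was higher and 2 were lower.

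Across the 15 samples, the genes with the levels most like each receptor were found by Pearson's r of log2(FPKM + 0.1). For Msr1 they were the chemokine genes Ccl2 (r = 0.95) and Ccl7 (0.91) and the complement gene Cfb (0.90). Mrc1 and Cd163 were near each other (0.96), with Rnase4 and Ngfrap1 (Mrc1) and Iqgap2 and Ang (Cd163) beside them at 0.93 to 0.96. Axl was most like Chil3 (0.98), BC035044 (0.96) and Fcnb (0.94), and Timd4 most like Prr5l (0.97), Axl and Aida (both 0.94). Nearest to Cd36 were G6pdx (0.93), Gclm (0.88) and Gstm1 (0.88), and nearest to Marco Rab11a, Fcer1g and Tceb1 (0.87 to 0.88). Scarb1 was closest to Msh6, Parp1 and Mbd4 (0.98 each), Stab1 to Prkacb (0.98), Phkb and Parp1 (both 0.97), and Mertk, with the weakest likeness, to Gca (0.81), Fndc3a (0.80) and March1 (0.79). These values describe group means shared by 3 samples each as much as single samples.

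The genes lie on 8 chromosomes of GRCm38 (GENCODE M21 annotation): Marco at chr1:120474538-120505024 (minus strand), Mrc1 at chr2:14229392-14332057 (plus), Mertk at chr2:128698956-128802894 (plus), Cd36 at chr5:17781690-17888801 (minus), Scarb1 at chr5:125277087-125341094 (minus), Cd163 at chr6:124304656-124330527 (plus), Axl at chr7:25757273-25788705 (minus), Msr1 at chr8:39581685-39642673 (minus), Timd4 at chr11:46810800-46844332 (plus) and Stab1 at chr14:31139013-31168641 (minus). The introns of Mrc1 hold the microRNA gene Mir511, with no exon overlap.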

How the data were processed

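RNA-seq libraries of BMDMs were prepared with a SMARTer mRNA kit. The authors deposited FPKM values, 1 per gene and sample, made with StringTie; the submitters' processing notes name the builds GRCm38.p4 and mm10, and the aligner is not given in the sources used here. FPKM fixes each sample's total, so a broad shift in RNA amount is not seen and a few highly expressed genes can lower the rest. Genes after an incomplete row (1) in the alphabetical table were not analysed here.

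Each gene's values were whole multiples of 1 fragment (100% within 0.01 fragments, 14485 genes), which gave the fragments per sample. Groups and replicate numbers came from the sample titles. Log2(FPKM + 0.1) was computed for the 11743 genes that averaged 0.1 FPKM or more, and fitted with limma 3.58.1 (R 4.3.3; moderated by trend) in 1 model of the 5 groups, tested two-sided with Benjamini-Hochberg adjustment over all genes. The fold thresholds, 1.5 and 0.66, are those of the study's methods, which used an unadjusted p. The code was tested on simulated data. Exact permutation tests of 3 against 3 samples cannot go below 0.1 and were not relied on. Tables were handled with Python 3.11.15 and pandas 2.3.3.

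Same-numbered samples of Control, RANKL 4 h, LPS 4 h and RANKL 3 d deviated together from their group means over 9486 genes (mean r of 0.764 for Control with RANKL 4 h, 0.560 with LPS 4 h and 0.213 with RANKL 3 d, every pair above 0.1), while Control and LPS 3 d gave 0.0753. The numbers were taken to pair the first 4 groups, from the data and not from the labels. A fit with the number as a replicate block in those groups was added after seeing the data.

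Alternatives were other pseudocounts and filters, median centring, the replicate block, 2 groups only, no trend, the unadjusted p, voom on fragments, a stromal covariate and each sample left out. Named are all 10 receptors, from each related list up to 2 changed genes in each direction with the largest fold change at a mean of at least 1 FPKM, and the 3 genes most correlated with each receptor. A list gene that met this rule is not reported here. Members and lists were chosen with earlier results of these data known.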

Additional observations from a re-analysis of the deposited data

Results flagged for a closer look

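In 7 cases a receptor's change under one stimulus differed between 4 hours and 3 days by the limma test of the difference. Under RANKL, Msr1 (log2 difference -0.92, 3 days against 4 hours), Cd36 (-1.31) and Axl (-0.67) were lower at 3 days. Under LPS, Timd4 (-3.44) and Axl (-2.02) were lower and Scarb1 (0.92) and Stab1 (0.90) higher at 3 days. The 2 higher calls under LPS did not pass with median centring, and Stab1 did not pass without LPS 3 d replicate 3.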

How the results depend on the processing

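Leaving out 1 sample at a time moved the count of changed receptors between 2 and 4 in RANKL 3 d, 2 and 4 in LPS 4 h, 2 and 5 in LPS 3 d, 3 and 6 in LPS 3 d against LPS 4 h, 2 and 4 in RANKL 3 d against RANKL 4 h, 6 and 8 between the 3-day groups and 3 and 4 between the 4-hour groups; in RANKL 4 h it stayed at 0. Other settings gave 5 in RANKL 3 d with the stromal covariate, 5 in LPS 4 h with median centring, 2 in LPS 3 d with no filter on low values or with 2 groups only, and 5 in RANKL 3 d against RANKL 4 h with the unadjusted p or the stromal covariate. The shares of all genes called in these refits are not given here, except with median centring and without LPS 3 d replicate 3. Nothing is therefore read from these counts about the receptors. The cause was not tested.

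With the replicate block over all groups, Stab1 was higher in RANKL 3 d (0.76) and in RANKL 3 d against RANKL 4 h (0.94) and lower in LPS 3 d (-0.84), whose numbers did not pair, and no other receptor call changed. With the replicate block among the 4 paired groups, chosen after seeing the data, 5 receptors changed in RANKL 3 d, 5 in LPS 4 h and 6 in RANKL 3 d against RANKL 4 h. The shares of all genes called under this block are not given here. Some other lists gained calls too. In RANKL 3 d the neutrophil markers called lower went from 4 to 7 and the stromal markers called higher from 6 to 8. The engulfment genes stayed at 2 higher. Nothing is therefore read from the rise about the receptors.

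Signs turned for values that did not pass: Marco in RANKL 4 h with the stromal covariate (-0.10) and Cd163 in RANKL 3 d with median centring (-0.0882) or the stromal covariate (-0.21). Leaving out single samples gave ranges that crossed 0 in RANKL 4 h for Axl (-0.26 to 0.0668), Cd163 (-0.72 to 0.0904), Cd36 (-0.34 to 0.14), Marco (-0.81 to 0.64), Mrc1 (-0.62 to 0.0528), Scarb1 (-0.0888 to 0.17), Stab1 (-0.49 to 0.12), Timd4 (-0.44 to 0.14), in RANKL 3 d for Cd163 (-0.19 to 0.50), in LPS 4 h for Marco (-0.63 to 0.68) and in LPS 3 d for Marco (-0.42 to 0.89). For the 9 receptor changes against Control, 216 of 234 refits under other settings kept the direction and the call, 18 kept the direction only and none reversed. Of these 18, 11 came from leaving out 1 sample, in each case a sample of a group compared. Many of the 234 refits could not move the fold change, such as those without a sample of a group not compared. The unadjusted p could only loosen a call. The share kept is therefore no measure of robustness. Depth limits Timd4 and Cd163 in LPS 3 d.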
